A study of Mus musculus with 4 samples.

Results

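The genes described here are 9 genes of the leukotriene and prostaglandin pathways, Ggt5, Ggt1, Alox5, Alox5ap, Lta4h, Ltc4s, Ptgs1, Ptgs2 and Cysltr1, out of 22026 genes listed for each library. They were taken by symbol, and the list was selected on the RBP-J KO to WT differences of these same libraries, so the differences are given as a description and without a test. RNA was measured in bone marrow derived macrophages of C57BL/6 mice aged 8 weeks, after 3 days of culture in CMG14-12 supernatant equivalent to 20 ng/ml of M-CSF, the growth factor that drives macrophage formation. The 2 RBP-J KO libraries carry the genotype Rbpj f/f;LysM cre, in which Cre is made from a promoter active in macrophages, neutrophils and their precursors, so that cells outside these lineages keep Rbpj. The 2 WT libraries are called wildtype controls, and whether they carry the floxed allele or the Cre is not given in the sources used here. Values are FPKM (RNA fragments relative to transcript length and to the size of the library), and pair 1 and pair 2 stand for the libraries of replicate number 1 and 2.

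Both classes of lipid mediator are made from arachidonic acid, which phospholipases release from membranes. 5-lipoxygenase (Alox5), with the help of its activating protein FLAP (Alox5ap), turns it into leukotriene A4, from which LTA4 hydrolase (Lta4h) makes leukotriene B4 and LTC4 synthase (Ltc4s) makes leukotriene C4 by adding glutathione. The gamma-glutamyl transferases Ggt5 (also known as gamma-glutamyl leukotrienase) and Ggt1 cut leukotriene C4 to leukotriene D4, the preferred ligand of the receptor CysLT1 (Cysltr1). The cyclooxygenases COX-1 (Ptgs1) and COX-2 (Ptgs2) commit arachidonic acid to prostaglandins and thromboxane, with COX-2 as the inducible form.

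Rbpj encodes RBP-J, the DNA-binding partner of Notch receptors, and it stood at 51.5 and 77 FPKM in the RBP-J KO libraries, against 355 and 573 FPKM in the WT libraries. The replicate numbers differed in layout and in sex-linked genes. Replicate 1 was deposited by gene and replicate 2 by transcript. The Y-linked gene Ddx3y was above 0 in replicate 1 alone (174 FPKM in RBP-J KO, 193 FPKM in WT), and Xist, the RNA of the silenced X, in replicate 2 alone (290 FPKM in RBP-J KO, 268 FPKM in WT). Each of the 9 genes has 1 transcript in the replicate 2 tables, so summing transcripts did not enter their values. Of 11 macrophage markers, among them Emr1, Csf1r and Cd68, all 11 were above 0 in every library, with sums of 29085 and 22075 FPKM in RBP-J KO and 23341 and 25531 FPKM in WT. Inside the pairs, 3 of them were higher in RBP-J KO in both and 5 were lower in both. Lyz2, the lysozyme M gene, gives the LysM cre its name. It was at 94.3 and 115 FPKM in RBP-J KO, against 218 and 192 FPKM in WT. The part of the Cre in this difference of Lyz2 was not tested. Cd14, a lipopolysaccharide co-receptor, was at 764 and 800 FPKM in RBP-J KO, against 1715 and 1570 FPKM in WT. Both were without overlap, as was Cd68, which was lower by less than 1.5-fold in each pair. Mrc1 and Cd163 were also lower in both pairs, with overlapping groups. Mrc1 was at 813 and 2807 FPKM in RBP-J KO and 1351 and 4263 FPKM in WT. Cd163 was at 4.61 and 44.4 FPKM in RBP-J KO and 35.2 and 58.0 FPKM in WT. In the other direction, Mpeg1 was at 9176 and 6668 FPKM in RBP-J KO, against 5121 and 5805 FPKM in WT, also without overlap. Mertk and Fcgr1 were higher in RBP-J KO in both pairs, with overlapping groups. Read depth is unknown, so no counting interval was given.

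RefSeq promoters (250 bases before to 50 after a gene's start, build GRCm38.p6) were found for 6 of the 9 genes, with 9 starts in all. Ggt5, Alox5ap and Cysltr1 had no entry, so their promoters were not searched. The promoters found were searched on both strands for TGGGAA, the core of the sequence bound by RBP-J, and for the longer GTGGGAA, which contains it. TGGGAA was found at 1 start each of Ltc4s and Ggt1, that is in 2 of 9 promoters, against 25.6% of all 32851 promoters. GTGGGAA was in 0 of the 9, against 6.38% of all. The promoters of Ptgs1 and Alox5, the genes with several-fold differences in opposite directions that had an entry, are shown with that of Ltc4s, where the capitals mark the core, read on the reverse strand as TTCCCA and starting 79 bases before the gene's start. The first lies at chr2:36230176-36230475 on the plus strand, the second at chr6:116461129-116461428 on the minus strand and the third at chr11:50238483-50238782 on the minus strand.
Ptgs1: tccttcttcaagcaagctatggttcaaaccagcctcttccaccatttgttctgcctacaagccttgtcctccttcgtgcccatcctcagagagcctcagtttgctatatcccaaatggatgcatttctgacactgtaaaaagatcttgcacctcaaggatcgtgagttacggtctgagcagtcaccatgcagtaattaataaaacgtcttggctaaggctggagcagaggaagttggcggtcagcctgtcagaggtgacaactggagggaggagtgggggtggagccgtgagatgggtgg
Alox5: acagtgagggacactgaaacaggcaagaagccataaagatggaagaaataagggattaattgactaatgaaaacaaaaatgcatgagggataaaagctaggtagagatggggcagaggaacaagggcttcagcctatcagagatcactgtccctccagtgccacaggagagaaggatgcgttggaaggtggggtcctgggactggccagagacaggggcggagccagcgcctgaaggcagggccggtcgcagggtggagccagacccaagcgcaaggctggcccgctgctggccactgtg
Ltc4s: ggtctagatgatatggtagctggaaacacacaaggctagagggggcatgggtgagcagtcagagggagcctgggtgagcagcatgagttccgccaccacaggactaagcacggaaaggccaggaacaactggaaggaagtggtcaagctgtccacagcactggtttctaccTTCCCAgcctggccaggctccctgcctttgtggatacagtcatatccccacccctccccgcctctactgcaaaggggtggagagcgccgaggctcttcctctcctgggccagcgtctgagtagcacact
No capitals appear in the promoters of Ptgs1 and Alox5 because neither holds these letters in this window.

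The 9 genes covered a wide range of levels. Alox5ap was the highest in every library, between 2585 and 4012 FPKM, and its range did not meet that of any other of these genes. Lta4h followed with 195 to 212 FPKM and Cysltr1 with 142 to 218 FPKM, and these ranges overlapped. Ptgs1, Ltc4s, Ggt5 and Alox5 came next by their mean over the 4 libraries, at 159, 68.1, 43.4 and 25.6 FPKM, and each range overlapped that of the next. Ptgs2 was at 3.01 FPKM or less, and Ggt1 was listed at 0 in all 4 libraries. Comparisons of level between genes rest on FPKM, whose absolute scale is uncertain in these files.

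**Figure D1:**
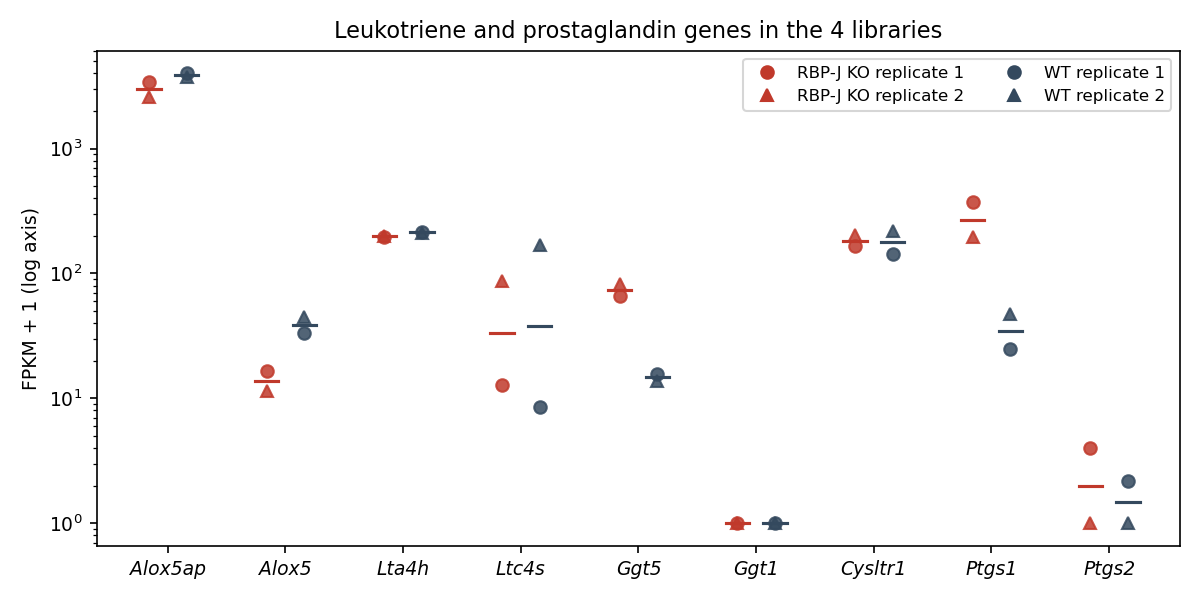
Level of each gene in FPKM + 1 on a log axis, with RBP-J KO libraries in red and WT libraries in dark blue, circles for replicate 1 and triangles for replicate 2, and the geometric mean of the 2 libraries as a bar. Ggt5 and Ptgs1 lay higher and Alox5 lower in both RBP-J KO libraries, Ltc4s separated by replicate number, and Ggt1 sat at the bottom, listed at 0.

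Of the 9 genes, 8 had a mean of at least 1 FPKM and entered the fit over 11851 genes, all but Ggt1. By the count of genes at least 1.5-fold apart on the FPKM + 1 scale with the same sign in both pairs, 2 were higher in RBP-J KO (Ggt5 and Ptgs1) and 1 was lower (Alox5), while 1 (Ltc4s) was this far apart with opposite signs. Over all genes fitted, 3.86% were higher, 3.63% were lower and 0.751% had opposite signs by this measure. Alox5, Alox5ap and Lta4h were below both WT libraries in both RBP-J KO libraries, as were 18.2% of all genes, and Ggt5 and Ptgs1 were above both, as were 11.7%. Since the genes were chosen with these differences known, nothing is read from their share against the background. In limma with Benjamini-Hochberg adjustment, 0 of 11851 genes (0%) passed an adjusted p of 0.05, with 524 (4.42%) at an unadjusted p under 0.05. With 2 libraries per group, an adjusted p that misses the threshold does not show that a gene was unaltered.

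**Figure D2:**
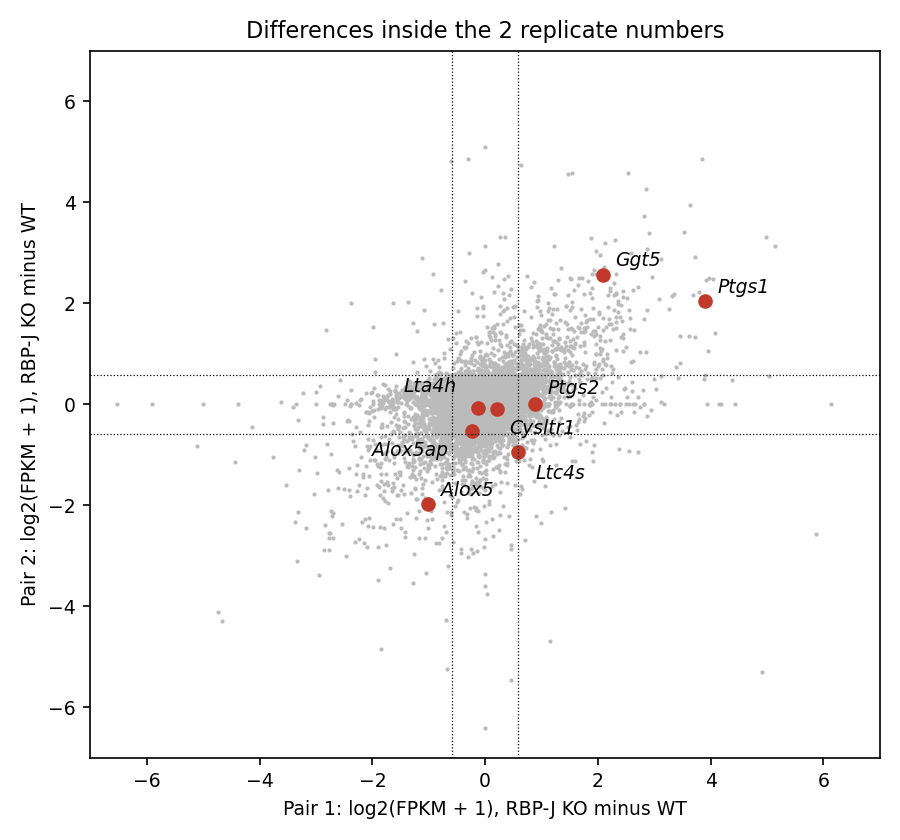
Difference of log2(FPKM + 1), RBP-J KO minus WT, in pair 1 (x axis) and pair 2 (y axis) for the 11851 genes fitted (grey) and the 8 pathway genes among them (red); dotted lines mark 1.5-fold. Ggt5 and Ptgs1 lie in the upper right corner, Alox5 in the lower left, Ltc4s in the lower right, and the other 4 within 1.5-fold in at least 1 pair.

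The genes of the first step of leukotriene synthesis, Alox5 and Alox5ap, were lower in both RBP-J KO libraries than in both WT libraries. Alox5 was at 15.6 and 10.4 FPKM in RBP-J KO, against 32.4 and 43.9 FPKM in WT. The difference was 2.01-fold in pair 1 and 3.93-fold in pair 2 (log2 difference -1.49, SE 0.32). Alox5ap, which presents arachidonic acid to 5-lipoxygenase, was at 3428 and 2585 FPKM in RBP-J KO, against 4012 and 3744 FPKM in WT, and the difference stayed under 1.5-fold in each pair (log2 difference -0.38, SE 0.24). In FPKM, Alox5ap was 220 and 248 times the level of Alox5 in RBP-J KO, and 124 and 85.3 times in WT. Beside Alox5, the nearest gene on one side, March8, a ubiquitin ligase, was also lower in RBP-J KO without overlap, at 162 and 155 FPKM in RBP-J KO, against 202 and 212 FPKM in WT, under 1.5-fold in each pair. The next gene beyond it, Anubl1, was at 13.9 and 11.9 FPKM in RBP-J KO and 22.0 and 10.4 FPKM in WT, and the 2 nearest on the other side are olfactory receptor genes, listed at 0.

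The enzymes that share leukotriene A4 differed from each other in steadiness. Lta4h, on the route to the neutrophil attractant leukotriene B4, was at 195 and 199.5 FPKM in RBP-J KO and at 212 and 211 FPKM in WT, the steadiest of the 9 genes with a level above 0 (log2 difference -0.10, SE 0.17). Even so, both RBP-J KO values were below both WT values. Ltc4s, on the route to the cysteinyl leukotrienes, was at 11.9 FPKM in RBP-J KO and 7.55 FPKM in WT in pair 1. In pair 2 it was at 86.1 FPKM in RBP-J KO and 167 FPKM in WT. It was thus higher in RBP-J KO by 1.51-fold in pair 1 and lower by 1.93-fold in pair 2, and the RBP-J KO values lay inside the range of the WT values (log2 difference over all libraries -0.18, SE 1.71). The difference in pair 1 lay just past the 1.5-fold mark.

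Ltc4s differed more by replicate number than by genotype. On the FPKM + 1 scale, replicate 2 was higher than replicate 1 by 6.76-fold within RBP-J KO and by 19.6-fold within WT. Of the 11851 genes fitted, 76 (0.641%) differed between the replicate numbers at least this far in 1 direction within both genotypes. None of the other 7 genes fitted came near it: Ptgs2 had the next largest such difference, in the other direction, and 617 genes (5.21%) went at least as far. The nearest genes on either side of Ltc4s did not share its pattern: Mgat4b was at 224 and 215 FPKM in RBP-J KO and 240 and 277 FPKM in WT, and Maml1, a Notch coactivator, was at 53.5 and 37.1 FPKM in RBP-J KO and 42.5 and 32.3 FPKM in WT. Alox12, the 12-lipoxygenase of platelets, had the opposite order by replicate number, with 17.2 and 0.56 FPKM in RBP-J KO and 18.5 and 0 FPKM in WT (it is not named by the rule and was picked with its values in view). The replicate numbers differ in the sex of the mice, as their sex-linked genes show, and in file layout. They also differ in markers of other cells: neutrophil markers summed to 8842 FPKM (RBP-J KO) and 7429 FPKM (WT) in replicate 1. In replicate 2 these sums were 1242 FPKM (RBP-J KO) and 384 FPKM (WT). The platelet marker Ppbp was at 271 FPKM (RBP-J KO) and 404 FPKM (WT) in replicate 1. In replicate 2 it was at 21.2 FPKM (RBP-J KO) and 8 FPKM (WT). The platelet markers Pf4 and Treml1 did not fall in both genotypes. These differences between the replicate numbers cannot be told apart.

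Ggt5, which acts after Ltc4s, showed the most even difference among the genes that lay several-fold apart. It was at 65.4 and 80.6 FPKM in RBP-J KO, against 14.7 and 12.8 FPKM in WT. RBP-J KO averaged 73.0 ± 10.7 FPKM and WT averaged 13.7 ± 1.34 FPKM (SD, n = 2 each), and both RBP-J KO libraries were far above both WT libraries. The difference was 4.24-fold in pair 1 and 5.92-fold in pair 2 (log2 difference 2.32, SE 0.23). Ggt5 stood below Alox5 in both WT libraries and above it in both RBP-J KO libraries, at 4.20 and 7.73 times the Alox5 level in RBP-J KO and 0.453 and 0.292 times in WT.

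Ggt1, the broadly expressed gamma-glutamyl transferase best known from the kidney, was listed at 0 in every library. In the RefSeq gene order it is the neighbour of Ggt5 on one side, and Susd2 is the neighbour on the other. Susd2 was at 1.77 and 0 FPKM in RBP-J KO and listed at 0 in both WT libraries. Cabin1, the next gene beyond Susd2 and an inhibitor of calcineurin, was at 56.0 and 56.7 FPKM in RBP-J KO and 46.1 and 52.2 FPKM in WT, and Lrrc75b, the next gene beyond Ggt1 and listed under an older symbol, was at 0 throughout. None of these 4 neighbours differed by 1.5-fold or more with the same sign in both pairs.

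Cysltr1, the receptor for the product of Ggt5, had overlapping groups. It was at 164 and 203 FPKM in RBP-J KO and at 142 and 218 FPKM in WT (log2 difference 0.05, SE 0.28), higher in RBP-J KO in pair 1 and lower in pair 2. In both genotypes replicate 2 was the higher library.

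The cyclooxygenases were unequal in level and in difference. Ptgs1 was at 370 and 195 FPKM in RBP-J KO, against 23.9 and 46.6 FPKM in WT. The RBP-J KO library exceeded its WT partner 14.9-fold in pair 1 and 4.12-fold in pair 2 (log2 difference 2.97, SE 0.47), with means of 283 ± 124 FPKM in RBP-J KO and 35.3 ± 16.1 FPKM in WT (SD, n = 2 each). The groups did not overlap, although within RBP-J KO replicate 2 was the lower library and within WT it was the higher. Ptgs2 was at 3.01 and 0 FPKM in RBP-J KO and at 1.18 and 0 FPKM in WT, so it was listed at 0 in both replicate 2 libraries and low in both replicate 1 libraries. Ptgs1 RNA was 123 times the level of Ptgs2 RNA in RBP-J KO replicate 1 and 20.3 times in WT replicate 1. Beside Ptgs1, Mrrf and Rbm18, the nearest listed genes on one side, did not share its difference. Mrrf was at 27.4 and 23.5 FPKM in RBP-J KO, against 23.4 and 25.1 FPKM in WT, and Rbm18 at 84.8 and 81.5 FPKM in RBP-J KO, against 83.2 and 77.8 FPKM in WT. The 2 nearest on the other side are olfactory receptor genes, listed at 0.

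Several of these genes are also made by other marrow cells, and markers of those cells moved with the libraries. Eosinophil markers (8 genes) summed to 172 and 46.1 FPKM in RBP-J KO and 74.6 and 10.4 FPKM in WT, and 5 of the 6 fitted were higher in RBP-J KO in both pairs. Mast cell and basophil markers (12 genes) summed to 45.2 and 4.75 FPKM in RBP-J KO and 12.0 and 0 FPKM in WT. The mast cell proteases Mcpt4, Tpsb2, Tpsab1 and Cma1 were at 0 in every library. Of the 5 fitted, Prss34, Hdc and Kit exceeded their WT partner in each pair. Cpa3 and Mcpt8 did so in pair 1 and were listed at 0 in replicate 2. Prss34 was at 12.2 and 2.01 FPKM in RBP-J KO and 1.88 and 0 FPKM in WT. Neutrophil markers (14 genes with an entry) summed to 8842 and 1242 FPKM in RBP-J KO and 7429 and 384 FPKM in WT, and 11 of the 14 were higher in RBP-J KO in both pairs. Dendritic cell markers (8 genes) summed to 172 and 25.1 FPKM in RBP-J KO and 31.3 and 42.4 FPKM in WT. Platelet markers (8 genes, mostly Pf4, which macrophages also express) summed to 2862 and 4355 FPKM in RBP-J KO. In WT they summed to 3553 and 3068 FPKM. Among the others, Ppbp was at 271 and 21.2 FPKM in RBP-J KO and 404 and 8 FPKM in WT. Itga2b was at 36.1 and 3.69 FPKM in RBP-J KO and 32.2 and 0 FPKM in WT. Treml1 was nearly level, at 34 and 29.2 FPKM in RBP-J KO and 35.8 and 36.9 FPKM in WT. B cell markers (6 genes) summed to 37.2 and 26.0 FPKM in RBP-J KO and 18.5 and 6.93 FPKM in WT, without overlap between the groups. Most of that was Cd79b, part of the B cell receptor, at 20.7 and 26.0 FPKM in RBP-J KO and 9.9 and 6.93 FPKM in WT. The sums of T and NK cell, erythroid, and stromal and endothelial markers were at most 25.1 FPKM in any library. The part of these cells in the differences of the 9 genes was not tested. In bulk RNA, a different number of cells of a type and a different amount of RNA per cell cannot be told apart.

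By distance over the 4 libraries, 5 genes lay nearest to Ggt5 in centred log2(FPKM + 1): Sema6d, a semaphorin, at a Euclidean distance of 0.36, Bank1, a scaffold protein known from B cells, at 0.45, Kdm6b, a histone H3 lysine demethylase, at 0.47, Ccr1, a chemokine receptor, at 0.49, and Tgtp1, an interferon-induced GTPase, at 0.52. Sema6d was at 31.9 and 53.0 FPKM in RBP-J KO and 7.39 and 5.61 FPKM in WT. Ccr1 was at 213 and 226 FPKM in RBP-J KO and 66.9 and 39.3 FPKM in WT, more even within RBP-J KO than within WT. The likeness rests on 4 libraries and follows from the choice of the genes nearest to Ggt5, so it is a description.

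**Figure D3:**
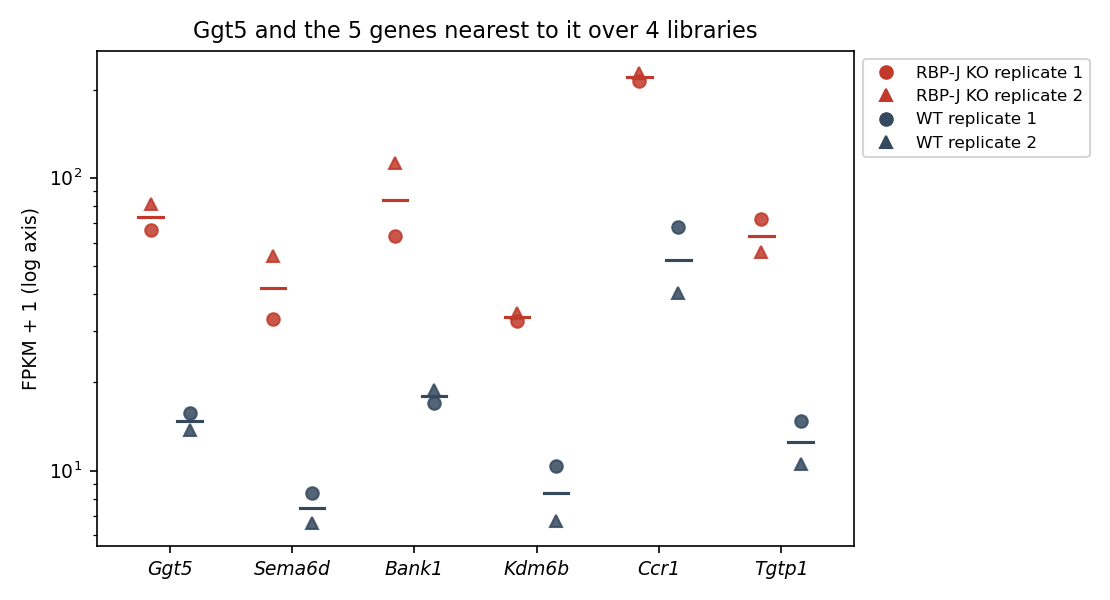
Level in FPKM + 1 on a log axis of Ggt5 and the 5 genes nearest to it, with RBP-J KO libraries in red and WT libraries in dark blue, circles for replicate 1, triangles for replicate 2 and bars for geometric means. In each of the 6 genes both RBP-J KO libraries lie above both WT libraries, as the choice by distance fixes.

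Around these 9 genes, 97 further genes of 4 lists were examined: the rest of the leukotriene branch, the supply of arachidonic acid, the rest of the prostanoid branch, and the glutathione cycle, in which gamma-glutamyl transferases also act. All 97 had an entry, 20 were listed at 0 in every library and 72 were fitted. No gene of any list passed the adjusted test. By the 1.5-fold count in both pairs, 5 of the 72 (6.94%) were higher and 11 (15.3%) lower in RBP-J KO, against 3.86% and 3.63% of all genes fitted. The lists were chosen with earlier results of these data known, so nothing is read from these shares or from those of each list. The median log2 difference of the 72 was -0.02, against -0.05 over all genes fitted.

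In the leukotriene branch 11 of 23 genes were fitted (median log2 difference 0.15). Of these, 1 (9.09%) was higher and 2 (18.2%) were lower by at least 1.5-fold in both pairs. Over all genes fitted the shares were 3.86% and 3.63%. Ptgr1, which inactivates leukotriene B4 and prostaglandins, was at 171 and 171 FPKM in RBP-J KO, against 360 and 302 FPKM in WT, without overlap (limma with Benjamini-Hochberg, adjusted p = 0.585). Cysltr2, the second receptor for cysteinyl leukotrienes, was at 15.9 and 10.5 FPKM in RBP-J KO and 9.78 and 4.32 FPKM in WT, and it was the higher gene of the count. Mgst3, a microsomal glutathione transferase, was at 108 and 168 FPKM in RBP-J KO and 168 and 382 FPKM in WT, while Mgst1, a relative of it, was at 495 and 594 FPKM in RBP-J KO and 623 and 925 FPKM in WT. Ltb4r1, the high-affinity receptor for leukotriene B4, was at 15.9 and 3.18 FPKM in RBP-J KO and 11.7 and 2.51 FPKM in WT, ordered by replicate number more than by genotype. Of the further gamma-glutamyl transferases and the peptidases listed past leukotriene C4, Ggt6, Ggt7 and Dpep1 were listed at 0. Dpep2, a dipeptidase that cuts leukotriene D4 to leukotriene E4, was at 670 and 342 FPKM in RBP-J KO and 354 and 326 FPKM in WT. Dpep3 was at 3.44 and 1.61 FPKM in RBP-J KO and 1.36 and 1.8 FPKM in WT. These values lie outside the naming rule and were chosen after they were seen.

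The list for the supply of arachidonic acid held 15 genes grouped as phospholipases A2 and 8 that return arachidonic acid to membrane lipids. Of the 23, 18 were fitted, with 3 (16.7%) higher and 2 (11.1%) lower by at least 1.5-fold in both pairs (median log2 difference 0.01). Over all genes fitted, 3.86% were higher and 3.63% were lower by this measure. Release of arachidonic acid was not measured. Pla2g7, the secreted enzyme that degrades platelet-activating factor, was at 3132 and 1259 FPKM in RBP-J KO and 1335 and 529 FPKM in WT, 2.35-fold and 2.38-fold higher in pairs 1 and 2, although the groups overlapped because replicate 1 was the higher in both. Pla2g15, a lysosomal phospholipase, was at 866 and 707 FPKM in RBP-J KO and 439 and 469 FPKM in WT, and Lpcat2, which makes platelet-activating factor and re-esterifies lysophospholipids, was at 414 and 199 FPKM in RBP-J KO and 137 and 132 FPKM in WT. In the opposite direction were secreted phospholipases of low level. Pla2g2e had 0 FPKM in RBP-J KO replicates 1 and 2, against 5.48 and 3.42 FPKM in WT, and Pla2g5 was at 0.66 and 0.94 FPKM in RBP-J KO and 13.9 and 2.37 FPKM in WT. Pla2g4a, the cytosolic phospholipase that releases arachidonic acid, was at 213 and 194 FPKM in RBP-J KO and 193 and 173 FPKM in WT, within 1.5-fold in each pair; it too was chosen after its values were seen.

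In the prostanoid branch 18 of 26 genes were fitted, with 0 higher and 3 (16.7%) lower by at least 1.5-fold in both pairs, against 3.86% and 3.63% of all genes fitted (median log2 difference -0.17). Of 5 prostanoid receptors fitted, 2 were among the lower. Ptger2, 1 of the receptors for prostaglandin E2, was at 8.61 and 8.95 FPKM in RBP-J KO, against 18.0 and 21.7 FPKM in WT. Ptgir, the receptor for prostacyclin, was at 12.1 and 23.7 FPKM in RBP-J KO, against 27.6 and 43.7 FPKM in WT. Ptger1, Ptger3 and Ptger4, further receptors for prostaglandin E2 picked with their values in view, were higher in RBP-J KO in both pairs. Ptger1 was at 137 and 167 FPKM in RBP-J KO and 109 and 150 FPKM in WT. Ptger4 was at 53.1 and 17.3 FPKM in RBP-J KO and 21.5 and 13.8 FPKM in WT. None of these reached 1.5-fold in both pairs. Ephx1, an epoxide hydrolase, was at 10.2 and 69.1 FPKM in RBP-J KO and 32.9 and 180 FPKM in WT, ordered inside each pair but overlapping between groups. Cbr1, a carbonyl reductase of prostaglandin E2, was at 82.6 and 127 FPKM in RBP-J KO and 111 and 182 FPKM in WT, and Ptges, the inducible prostaglandin E synthase, was at 3.23 and 1.08 FPKM in RBP-J KO and 4.53 and 3.35 FPKM in WT. Of the synthases acting straight after the cyclooxygenases, Hpgds, Ptges3 and Tbxas1 had the highest means in both genotypes. They were chosen after their values were seen, and each stayed within 1.5-fold in each pair. Hpgds, the hematopoietic prostaglandin D synthase, was at 458 and 388 FPKM in RBP-J KO and 407 and 413 FPKM in WT. Ptges3, another prostaglandin E synthase, was at 318 and 290 FPKM in RBP-J KO and 428 and 230 FPKM in WT. It was thus lower in RBP-J KO in pair 1 and higher in pair 2. Tbxas1, the thromboxane synthase, was at 291 and 256 FPKM in RBP-J KO and 279 and 270 FPKM in WT. The difference of Ptgs1, a gene chosen with its difference known, was larger than that of any of these synthases in each pair.

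All 25 genes of the glutathione list were fitted, with 1 (4%) higher and 4 (16%) lower by at least 1.5-fold in both pairs, against the same 3.86% and 3.63% (median log2 difference -0.07). Gsr, glutathione reductase, was the higher one, at 382 and 599 FPKM in RBP-J KO, against 238 and 289 FPKM in WT. The glutathione peroxidases Gpx1, Gpx3 and Gpx7 were lower in both pairs. Gpx1 was at 872 and 789 FPKM in RBP-J KO, against 1398 and 1925 FPKM in WT, Gpx3 at 26.2 and 103 FPKM in RBP-J KO, against 68.4 and 231 FPKM in WT, and Gpx7 had 0 FPKM in RBP-J KO replicates 1 and 2, against 2.37 and 5.89 FPKM in WT. Anpep, the surface aminopeptidase CD13, which cuts the cysteinylglycine that gamma-glutamyl transferases leave from glutathione, was at 90.7 and 105 FPKM in RBP-J KO, against 244 and 617 FPKM in WT, 2.67-fold and 5.80-fold lower in pairs 1 and 2 (log2 difference -1.98, SE 0.48). Of the 7 genes of glutathione synthesis, such as Gclc and Gss, 0 reached 1.5-fold with the same sign in both pairs.

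**Figure D4:**
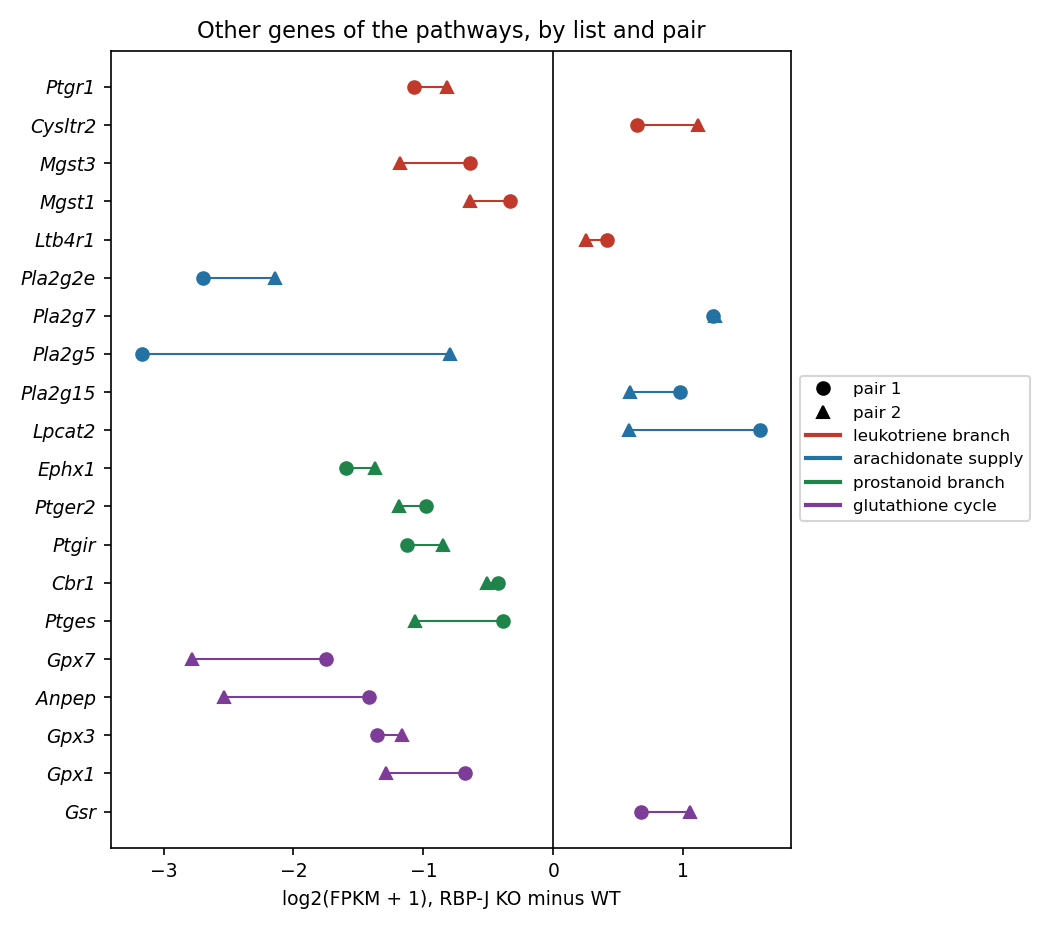
Difference of log2(FPKM + 1), RBP-J KO minus WT (x axis), for the 5 genes per list with the largest difference of 1 sign in both pairs, with circles for pair 1, triangles for pair 2 and colours for the lists. The 5 prostanoid genes lie left of 0, as do 4 of 5 glutathione genes, and 3 of 5 genes of arachidonate supply lie right of 0; Pla2g2e and Gpx7 are listed at 0 in RBP-J KO, so their place depends on the added 1.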

How the data were processed

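The authors deposited FPKM values, 1 table per library; the unit follows from the submitters' processing notes, which name TopHat, Cufflinks and mm9, since the file headers name none. Versions, annotation and scaling are not given in those notes, so absolute levels are only described. Transcript rows of replicate 2 were summed per symbol, and 25 symbols that had become dates were restored. The 11851 genes averaging 1 FPKM or more were fitted as log2(FPKM + 1), which understates differences of low genes, with limma 3.58.1 in R 4.3.3 (group only, variance trend, Benjamini-Hochberg, two-sided, threshold 0.05); the fit was tested on simulated data. Folds are ratios of FPKM + 1. Sex-linked genes put the replicate numbers in mice of different sex, but the labels do not say how mice were drawn or pooled, and standard errors (SE) measure only the spread between these libraries. The 9 genes and all lists were chosen with earlier results of these data known. Named by rule were the 9 genes, up to 5 genes per list with the largest difference of 1 sign in both pairs (ranked by the smaller pair), and the 5 genes nearest to Ggt5; neighbouring genes were added after the data were seen. Promoters are from RefSeq, in a build other than that of the files. Alternatives covered pseudocounts, filters, scalings, transcript choice, variance trend, a replicate block and leaving out each library. Figures used Python 3.11.15 and matplotlib 3.10.9.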

Additional observations from a re-analysis of the deposited data

Results flagged for a closer look

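Among the 80 pathway genes fitted, 4 differed by at least 1.5-fold in opposite directions in the pairs, as did 0.751% of all genes fitted; with 1 library per genotype in each pair the difference between pairs was not tested. All log2 differences are RBP-J KO minus WT. Ltc4s was at 0.59 in pair 1 and -0.95 in pair 2. Mgst2, a microsomal transferase that can also make leukotriene C4, was at 0.98 and -0.89, with 19.1 and 3.64 FPKM in RBP-J KO and 9.23 and 7.6 FPKM in WT. Gstt1, a glutathione transferase, was at 1.78 and -0.73, with 2.44 and 2.6 FPKM in RBP-J KO and 0 and 4.96 FPKM in WT. Hpgd, the dehydrogenase that inactivates prostaglandins, had the widest gap, at -2.38 and 2.01, with 49.2 and 668 FPKM in RBP-J KO and 260 and 165 FPKM in WT.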

How the results depend on the processing

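No gene among the 9 passed an adjusted p of 0.05 in limma under any of the 13 alternatives, and over all genes the count was 0 except with no filter on low values, where it was 8 of 22026. A replicate block also gave 0, with 1557 genes at an unadjusted p under 0.05; same-numbered libraries deviated together (r = 0.64), but no label pairs them. The 1.5-fold counts over all genes moved to 220 higher and 168 lower at 2-fold, and to 282 lower at a pseudocount of 5; for the 9 genes they stayed at 2 higher and 1 lower in each alternative. Ggt5 lay between 2.05 and 2.47, Ptgs1 between 2.50 and 3.44 and Alox5 between -1.76 and -1.22 on the log2 scale. Ltc4s (-2.33 to 1.97), Ptgs2 (-0.12 to 1.44) and Cysltr1 (-0.25 to 0.36) changed sign with the library left out, Ptgs2 over the 10 alternatives in which it was fitted. With 1 library left out the counts by pair could not be formed.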
